A study of Avena sativa with 6 samples.

Results

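Transcripts of the enzymes that build flavonoids were followed in peeled oat grains from shaded ears and from ears left unshaded. Ear-shaded grains came from ears of the high-oil cultivar BY9 (Baiyan No.9) that were shaded for 4 days after flowering, and unshaded grains came from BY9 ears with no shading, with 3 libraries in each group. The genes are the rows whose KEGG annotation carries 1 of 8 enzyme numbers, for chalcone synthase (CHS), chalcone isomerase (CHI), flavanone 3-hydroxylase (F3H), flavonoid 3'-hydroxylase (F3'H), dihydroflavonol 4-reductase (DFR), anthocyanidin synthase (ANS), flavonol synthase (FLS) and anthocyanidin reductase (ANR). They number 60 of the 136488 genes of the table. A grain without its hull still holds pericarp, seed coat, endosperm and embryo, and the labels do not say how many ears or plants were pooled in a library, and a p-value here refers to variation among libraries that may be technical.

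Flavonoids start where CHS joins a coumaroyl unit from the phenylpropanoid pathway with malonyl units, and CHI closes the ring of the product. F3H, F3'H and FLS then lead to flavonols, compounds known as ultraviolet screens, while DFR, ANS and ANR lead to anthocyanins and to the units of proanthocyanidins, the tannins of many seed coats. In many plants light raises transcripts of this pathway, which is known best from leaves and seedlings.

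Levels are in FPKM, a unit that divides a gene's fragments by its length and by the size of its library. Most of the 60 genes were low: 21 reached a mean of 1 FPKM over the 6 libraries, the level required for the test, and 39 did not. The tested genes were all 12 of CHI, 3 of 4 of F3H, 1 of 3 of DFR, 2 of 4 of FLS and 3 of 10 of ANR, and no gene of CHS (12), F3'H (11) or ANS (4) reached that level. Gene IDs share the prefix AVESA.00010b.r2. and are given without it. Their letters A, C and D, which name the subgenomes of hexaploid oat, stood on 22, 13 and 19 of the 60 genes, and 6 had IDs with Un. Close copies of 1 enzyme can share reads, so single copies are less certain than sums over an enzyme. Beyond the enzyme numbers, 24 of the 60 (40.0%) carried the process term for flavonoid synthesis, against 0.137% of all genes, and 14 (23.3%) carried the term for response to light, against 1.41% of all genes.

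The enzyme label is uncertain for some rows of CHI. Of these 12 genes, 6 carry the description of the chalcone isomerase family, whereas the other 6 are described only by a PA domain, a segment found in proteases and sorting receptors, and all 6 have empty gene ontology fields. The genes with PA domain text are longer, at 2273 to 4878 bases against 675 to 1528 bases for those with isomerase text. They also held a large share of the signal: their summed level was 55.4 ± 1.88 FPKM in ear-shaded grains and 51.6 ± 4.0 FPKM in unshaded grains (SD, n = 3 each), out of 104 ± 4.18 and 120 ± 30.2 FPKM for all 60 genes. The sets are therefore described apart. Of the 12 rows of CHS, 1 names chalcone synthase alone, and 11 also name curcumin, acridone or stilbene synthases, enzymes of the same fold with other products.

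Marker genes of several grain tissues differed between the groups. All 41 tested genes of the light-harvesting antenna, a marker of green tissue such as pericarp, were higher in ear-shaded grains, with summed levels of 583 to 728 FPKM against 12.8 to 20.8 FPKM in unshaded grains. Storage protein genes with gliadin text, markers of endosperm, summed to 3216 to 5486 FPKM in ear-shaded grains and 11373 to 23016 FPKM in unshaded grains, with 23 of 27 tested genes lower. Oleosin text, which marks oil bodies of embryo and aleurone, summed to 7.05 to 7.61 FPKM in ear-shaded grains and 18.2 to 32.0 FPKM in unshaded grains, with 5 of 5 tested genes lower. Of all tested genes, 42.4% passed the same test as higher and 21.5% as lower. None of the genes of these lists was at 0 in every library. Their part in the flavonoid results was not tested, and in whole grains fewer cells of a type and less RNA per cell cannot be told apart. The 50 most abundant genes took 4.23% to 5.1% of a library's FPKM in ear-shaded grains and 8.93% to 13.8% in unshaded grains, and ear-shaded replicates 1 and 2 resembled each other (r = 0.9891 over genes) more than any other pair within a group (0.9495 to 0.965).

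Shading was not followed by a common move of the flavonoid genes. Of the 21 tested, 5 rose (23.8%), 4 fell (19.0%) and 12 did not pass an adjusted p of 0.05 in the limma model, which was fitted to all 58283 tested genes on log2(FPKM + 1). Among all tested genes, 42.4% rose and 21.5% fell (63.9% in either direction), so the flavonoid genes had a smaller share of increases and a share of decreases near the background. Of the 21 genes, 5 had every ear-shaded library above every unshaded one and 6 had every ear-shaded library below, against 46.2% and 24.0% of all tested genes. Groups without overlap thus made up 52.4% of the 21 genes and 70.2% of all tested genes. The median log2 fold change was -0.15 for the 21 genes and 0.26 for all tested genes. This 0.26 rests on the scaling: it was 0.01 with median-of-ratios scaling and 0.04 with quantile normalization. Under each of these, 2 of the 21 flavonoid genes rose and 8 fell, where 29.7% of all tested genes rose and 29.8% fell with median-of-ratios scaling, and 31.2% rose and 28.6% fell with quantile normalization. Without the 6 genes of PA domain text, a split made after the data were seen, 4 of 15 rose and 4 fell. What was clearest lay in single enzymes: both tested FLS genes were several-fold lower, and the genes with isomerase text moved in opposite directions.

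**Figure D1:**
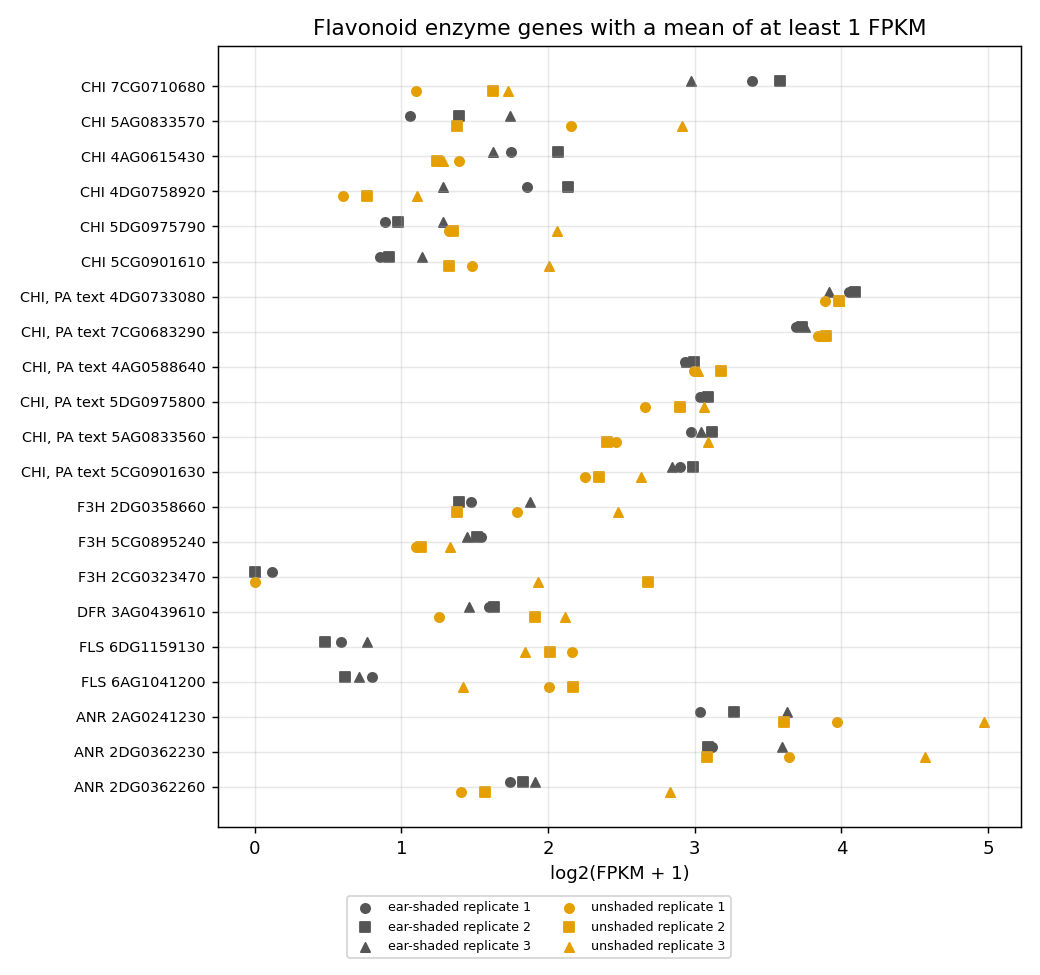
Expression of the 21 tested genes in each library, on a log2(FPKM + 1) axis, with dark symbols for ear-shaded and orange symbols for unshaded libraries; each shape is a replicate number. The FLS genes and CHI 7CG0710680 show groups that lie far apart, and unshaded replicate 3 lies to the right of the other unshaded libraries for all 3 ANR genes.

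**Figure D2:**
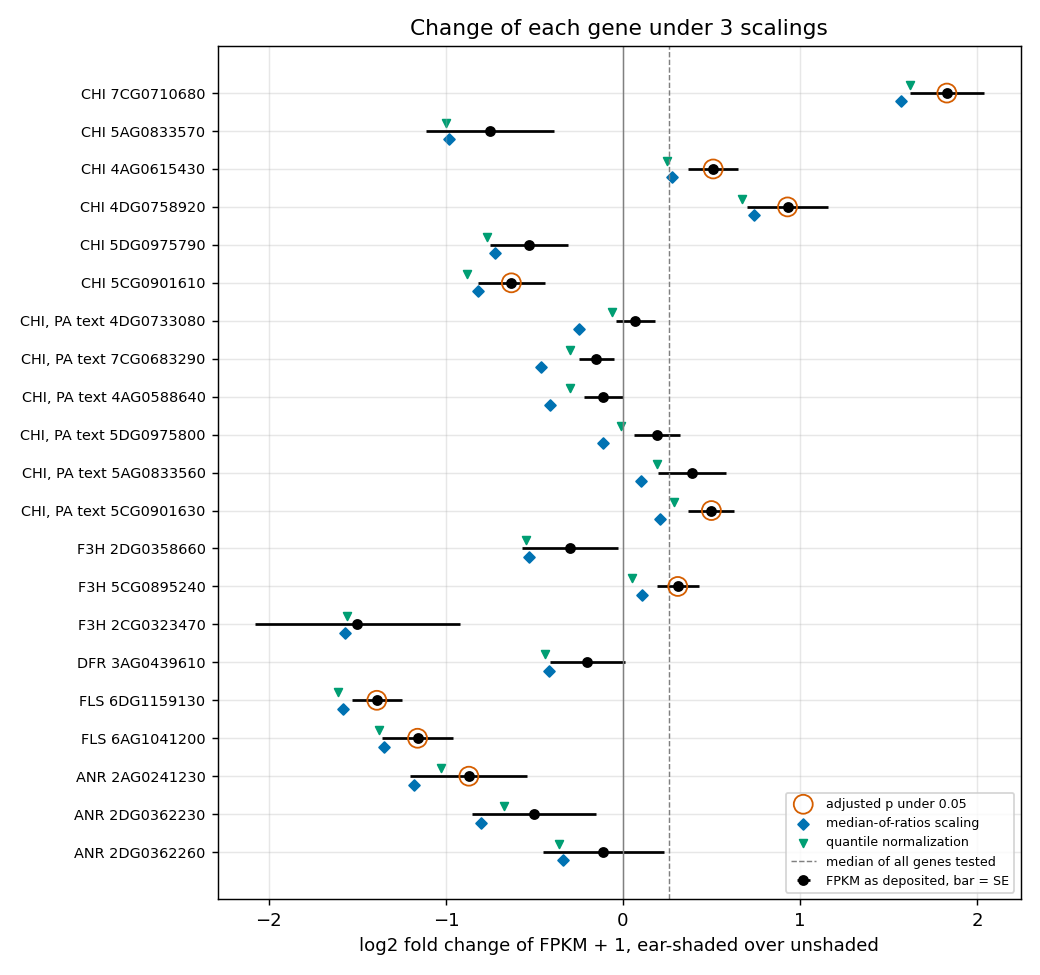
Log2 fold change of FPKM + 1 in ear-shaded over unshaded grains for the same genes, with black points and SE bars for the values as deposited, diamonds for median-of-ratios scaling and triangles for quantile normalization. Circles mark adjusted p under 0.05; the dashed line is the median of all tested genes, 0.26, and the FLS genes lie to the left of every other called gene.

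CHS, the enzyme that commits carbon to flavonoids, was barely detected. Its 12 genes together gave 1.51, 1.49 and 1.38 FPKM in ear-shaded libraries, against 0.762, 0.701 and 1.52 FPKM in unshaded libraries. The groups overlapped, because unshaded replicate 3 reached the level of the ear-shaded libraries. The gene with the highest mean, UnG1410840, was at 0.963, 1.06 and 0.974 FPKM in ear-shaded libraries and 0.301, 0.366 and 0.812 FPKM in unshaded libraries. In that gene every ear-shaded library lay above every unshaded one; without the filter on low values its log2 fold change was 0.44 (limma adjusted p = 0.057). The next, 4CG1303060, had 0.382, 0.403 and 0.285 FPKM in ear-shaded and 0.415, 0.205 and 0.633 FPKM in unshaded libraries, with overlapping groups. Further named copies, 7AG1205030 and 4AG0625470, stayed under 0.05 FPKM in every library. Of the 12 genes, 1 was listed at 0 in all ear-shaded libraries and 5 in all unshaded libraries. The rule did not take 14 more genes described as chalcone and stilbene synthases that lack this enzyme number; they summed to 5.48 ± 0.931 FPKM in ear-shaded and 3.57 ± 2.27 FPKM in unshaded grains (SD, n = 3 each), with overlapping groups, and the 1 tested did not pass.

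CHI was the one enzyme of the 8 with called genes in both directions, but it held 12 of the 21 tested genes. No other enzyme had more than 3. Of the 6 genes with isomerase text, 3 rose, and of the other 3, which lay lower on average in ear-shaded grains, 1 passed. The gene with the largest increase, 7CG0710680, had 9.48, 11.0 and 6.87 FPKM in ear-shaded libraries, against 1.14, 2.09 and 2.31 FPKM in unshaded libraries. All ear-shaded libraries lay above all unshaded ones, 4.95-fold in mean FPKM, and the log2 fold change was 1.83 (SE 0.21; limma adjusted p = 0.000243). Named outside the rule for named genes, after their values were seen, are 4DG0758920 and the 3 genes with 5A, 5C and 5D in the ID. For 4DG0758920 the levels were 2.63, 3.39 and 1.43 FPKM in ear-shaded and 0.517, 0.702 and 1.15 FPKM in unshaded libraries. It was 3.15-fold higher (log2 fold change 0.93, SE 0.23, limma adjusted p = 0.00874), again with no overlap. A smaller difference was seen for 4AG0615430, with 2.36, 3.20 and 2.09 FPKM in ear-shaded and 1.63, 1.37 and 1.43 FPKM in unshaded libraries. It rose 1.73-fold (log2 fold change 0.51, SE 0.14, limma adjusted p = 0.0144), but this call ended with median-of-ratios scaling (adjusted p = 0.112), with quantile normalization (0.144) and without ear-shaded replicate 2 (0.0576).

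The other 3 isomerase genes had lower means in ear-shaded grains, and 1 of them passed. For 5CG0901610 the levels were 0.807, 0.885 and 1.21 FPKM in ear-shaded and 1.79, 1.50 and 3.01 FPKM in unshaded libraries. Its ear-shaded libraries all lay below the unshaded ones, 2.17-fold in mean FPKM (log2 fold change -0.63, SE 0.19, limma adjusted p = 0.0195); the call ended without ear-shaded replicate 1 (adjusted p = 0.0691) or 2 (0.0625) and with both averaged (0.0646). At 5DG0975790 the groups did not overlap either, with 0.853, 0.971 and 1.43 FPKM in ear-shaded and 1.50, 1.55 and 3.18 FPKM in unshaded libraries, yet it missed the threshold (log2 fold change -0.53, SE 0.22, limma adjusted p = 0.0648). It passed with median-of-ratios scaling (-0.72, adjusted p = 0.0146), quantile normalization (-0.77, 0.0101), library weights (-0.50, 0.0189) and the replicate number as a block (-0.53, 0.0255). The third, 5AG0833570, had 1.08, 1.63 and 2.35 FPKM in ear-shaded and 3.46, 1.60 and 6.55 FPKM in unshaded libraries. These groups overlapped and the gene did not pass (log2 fold change -0.75, SE 0.36, limma adjusted p = 0.102); its mean was 2.29-fold lower in ear-shaded grains, or 1.50-fold without unshaded replicate 3. It passed under the same 4 settings (adjusted p of 0.0194 to 0.0398) and without unshaded replicate 2 (0.00962). The authors' deposited table, which marks genes with an adjusted p under 0.05 and a log2 fold change beyond 1, marks these 3 genes as down and 7CG0710680 and 4DG0758920 as up.

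Because both sets were measured in the same libraries, their proportion does not depend on scaling between libraries. The 3 genes with 5A, 5C and 5D in the ID made up 15.9%, 16.5% and 32.4% of the isomerase-text FPKM in ear-shaded libraries, against 67.3%, 52.8% and 72.3% in unshaded libraries. The groups did not overlap, at 21.6 ± 9.35% in ear-shaded and 64.1 ± 10.1% in unshaded grains (SD, n = 3 each). This grouping by ID was made after the values were seen and has no test. Its sets are the 3 genes with lower means in ear-shaded grains and the 3 called higher. A shift of the share was thus built into the split and is only a description. The other 3 summed to 14.2 ± 3.63 FPKM in ear-shaded and 4.11 ± 0.801 FPKM in unshaded grains, while those with 5A, 5C and 5D summed to 3.74 ± 1.14 and 8.05 ± 4.19 FPKM. Over all 6 the sum was 17.9 ± 2.94 FPKM in ear-shaded and 12.2 ± 4.77 FPKM in unshaded grains, with overlapping groups.

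**Figure D3:**
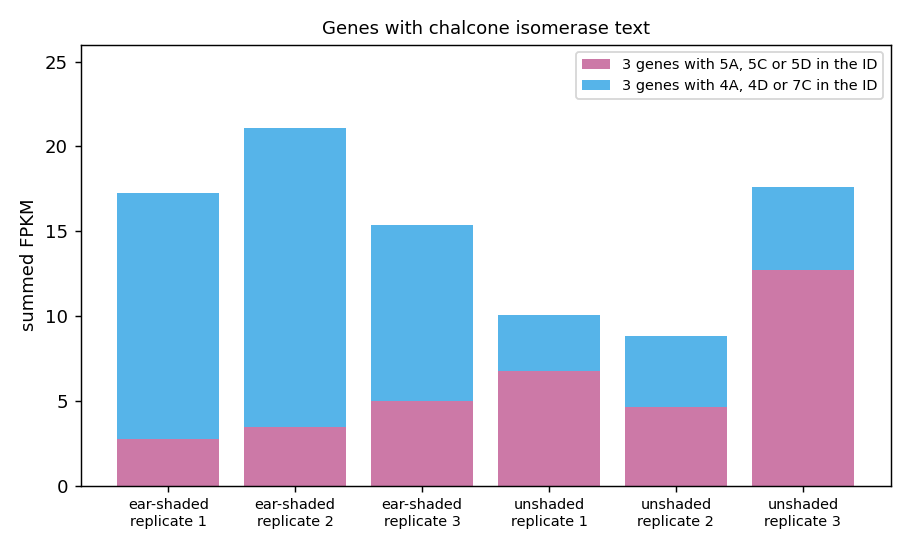
Summed FPKM of the 6 genes with chalcone isomerase text in each library, divided into the 3 genes with 5A, 5C or 5D in the ID (lower part of each bar) and the 3 with 4A, 4D or 7C (upper part). The lower part is 15.9% to 32.4% of the bar in ear-shaded libraries and 52.8% to 72.3% in unshaded libraries. The sets were formed after the values were seen and coincide with the direction of change.

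The 6 genes with PA domain text differed little between the groups. The gene with the highest mean of all 60, 4DG0733080, had 15.6, 16.1 and 14.1 FPKM in ear-shaded libraries and 13.8, 14.8 and 14.8 FPKM in unshaded libraries. Its log2 difference of 0.07 (SE 0.11, limma adjusted p = 0.587) turned to -0.25 with median-of-ratios scaling and -0.06 with quantile normalization. Levels of 7CG0683290 were 11.9, 12.3 and 12.5 FPKM in ear-shaded and 13.3, 13.9 and 13.7 FPKM in unshaded libraries, a separation without overlap but of 1.12-fold (log2 fold change -0.15, SE 0.10, limma adjusted p = 0.249). It was called lower under median-of-ratios scaling (-0.46) and quantile normalization (-0.30), as did 4AG0588640 (-0.41 and -0.30), whose value as deposited was -0.11 and whose sign turned to 0.01 with libraries scaled to the same sum. For 5DG0975800 the log2 fold change was 0.19 (SE 0.13, limma adjusted p = 0.24), turning to -0.11 with median-of-ratios scaling and -0.01 with quantile normalization. The 1 call in this set was 5CG0901630, named after its values were seen, which was higher by 0.50 on the log2 scale (SE 0.13, limma adjusted p = 0.0112). The call ended with median-of-ratios scaling (adjusted p = 0.127), quantile normalization (0.053) and without ear-shaded replicate 2 (0.0503). Outside the rule's enzyme numbers, 14 genes are described as chalcone isomerases or isomerase-like. They summed to 72.8 ± 10.3 FPKM in ear-shaded and 72.5 ± 4.16 FPKM in unshaded grains. Of the 11 tested, 1 rose and 1 fell, where 42.4% of all tested genes rose and 21.5% fell.

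F3H, which turns flavanones into dihydroflavonols, gave 1 weak call among 3 tested genes. The most abundant on average, 2DG0358660, had 1.78, 1.63 and 2.68 FPKM in ear-shaded and 2.45, 1.60 and 4.57 FPKM in unshaded libraries. Its groups overlapped and it did not pass (log2 fold change -0.30, SE 0.27, limma adjusted p = 0.363). A small increase was called for 5CG0895240, with 1.92, 1.86 and 1.73 FPKM in ear-shaded and 1.14, 1.19 and 1.52 FPKM in unshaded libraries. The groups did not overlap, but the change of 0.31 on the log2 scale (SE 0.12, limma adjusted p = 0.0446) was close to the median of all genes, and the call ended under 10 of the 16 alternatives, with adjusted p up to 0.664. The third gene, 2CG0323470, was listed at 0 or near 0 in ear-shaded libraries (0.0841, 0 and 0 FPKM), whereas unshaded libraries had 0, 5.41 and 2.81 FPKM. Unshaded replicate 1 thus matched the ear-shaded libraries, and the gene missed the threshold (log2 fold change -1.50, SE 0.58, limma adjusted p = 0.0524). Without that library it passed (log2 fold change -2.27, limma adjusted p = 0.000349), and it also passed with libraries scaled to the same sum (0.0493) and with the replicate block (0.0313). The remaining F3H gene, 2AG0244700, did not exceed 0.044 FPKM.

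F3'H adds a hydroxyl group to the B ring of flavonoids, and none of its 11 genes reached the level for the test. Together they gave 0.743, 0.536 and 0.777 FPKM in ear-shaded libraries, against 3.26, 1.56 and 2.22 FPKM in unshaded libraries. Every ear-shaded library lay below every unshaded one, 3.42-fold in the mean. The gene with the highest mean in unshaded grains was 7DG1352640, listed at 0 in all 3 ear-shaded libraries and at 1.28, 0.418 and 0.825 FPKM in unshaded ones. A further gene, 2AG0251950, was also listed at 0 in all ear-shaded libraries, with 0.396, 0.206 and 0.308 FPKM in unshaded ones. Both passed without the filter on low values, with log2 fold changes of -0.85 (limma adjusted p = 0.00721) and -0.38 (limma adjusted p = 0.00268). The gene 7DG1352650 had 0.221, 0.221 and 0.264 FPKM in ear-shaded and 0.963, 0.610 and 0.349 FPKM in unshaded libraries. Its row joins F3'H with a transporter of the MATE family, so the enzyme behind these reads is uncertain. The authors' deposited table marks all 3 as down. The fourth by level, 6CG1139200, had 0.235, 0.175 and 0.165 FPKM in ear-shaded and 0.428, 0.292 and 0.256 FPKM in unshaded libraries, separate groups with no mark in the authors' deposited table (adjusted p = 0.0643 there).

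FLS, the enzyme that makes flavonols, held the called genes with the largest decreases among the 21 tested. Its summed level was 1.24, 0.924 and 1.34 FPKM in ear-shaded libraries, against 6.68, 6.54 and 4.27 FPKM in unshaded libraries, 4.98-fold lower in the mean. The gene 6DG1159130 had 0.504, 0.394 and 0.699 FPKM in ear-shaded libraries and 3.47, 3.03 and 2.59 FPKM in unshaded libraries. It fell 5.69-fold in mean FPKM (log2 fold change -1.39, SE 0.14, limma adjusted p = 0.000113). The copy with 6A in the ID, 6AG1041200, was at 0.739, 0.530 and 0.641 FPKM in ear-shaded and 3.01, 3.51 and 1.68 FPKM in unshaded libraries. It fell 4.30-fold (log2 fold change -1.16, SE 0.20, limma adjusted p = 0.0014). In both genes the highest ear-shaded library lay well below the lowest unshaded one, and both kept the call under all 16 alternatives. The other FLS genes, 4AG0598770 and 6CG1134920, were listed at 0 in every library but unshaded replicate 1, where they had 0.144 and 0.0482 FPKM.

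**Figure D4:**
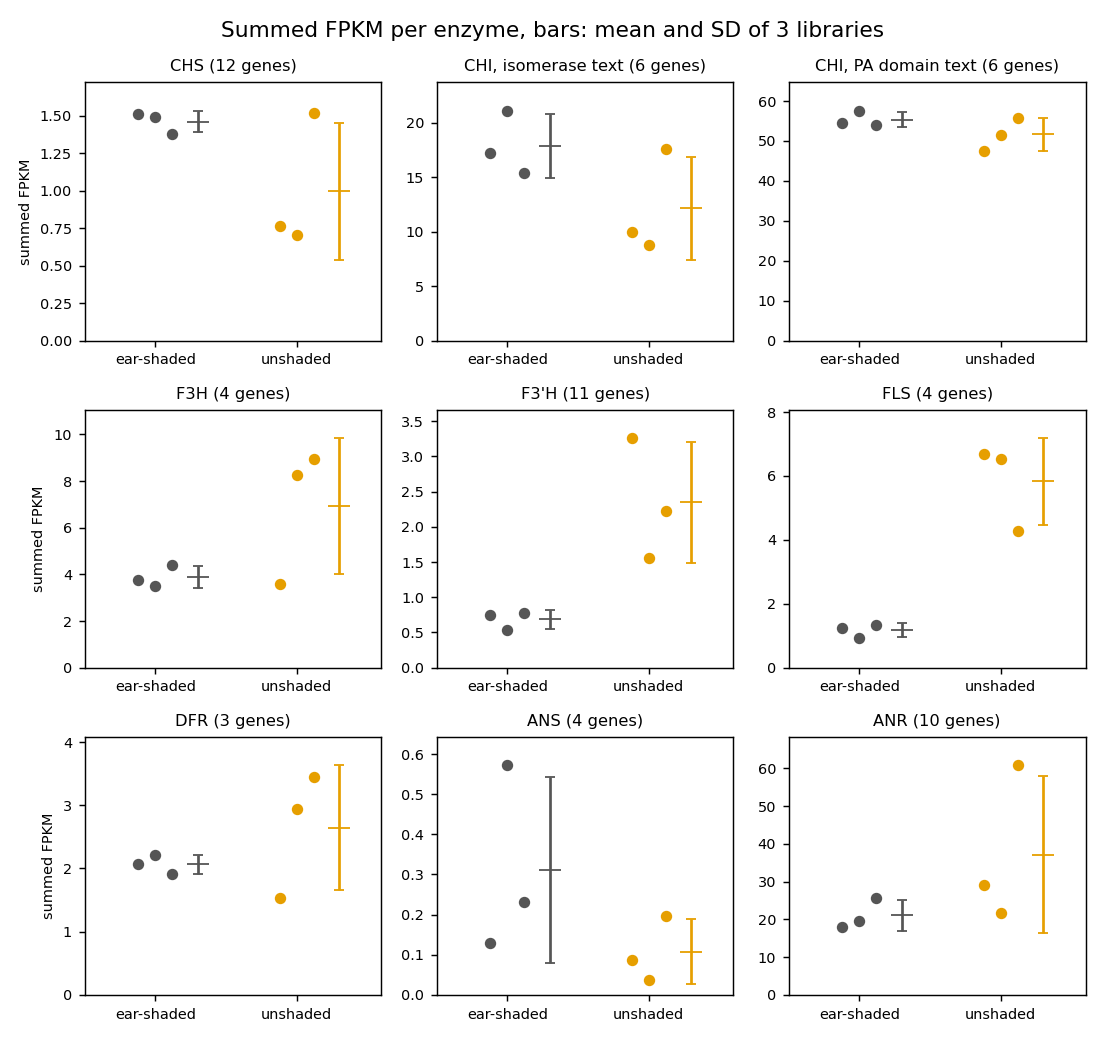
Summed FPKM per enzyme and library, each panel on its own linear axis from 0, with dots for libraries and bars for mean and SD of 3. Ear-shaded and unshaded libraries are separate for F3'H and FLS, where ear-shaded sums are 3.42-fold and 4.98-fold lower, and overlap in the other panels.

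DFR opens the branch to anthocyanins and proanthocyanidins. Its 1 tested gene, 3AG0439610, had 2.02, 2.10 and 1.76 FPKM in ear-shaded and 1.39, 2.76 and 3.33 FPKM in unshaded libraries, so the ear-shaded values lay within the unshaded range. The log2 fold change was -0.20 (SE 0.21, limma adjusted p = 0.446); it turned to 0.03 with library weights and passed as -0.45 without unshaded replicate 1 (adjusted p = 0.0302). The copies 3DG0540130 and 3CG0469600 did not exceed 0.173 FPKM. ANS, which forms anthocyanidins, was barely detected, with 0.130, 0.572 and 0.231 FPKM over 4 genes in ear-shaded libraries and 0.0874, 0.038 and 0.197 FPKM in unshaded ones. Of its genes, 2AG0258200 was at 0.0669, 0.138 and 0.106 FPKM in ear-shaded and 0.0441, 0.0163 and 0 FPKM in unshaded libraries, and passed only without the filter on low values (log2 fold change 0.11, limma adjusted p = 0.031). UnG1511560 peaked at 0.399 FPKM in ear-shaded replicate 2, and 7DG1346610 and 6CG1145720 did not exceed 0.148 FPKM.

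ANR, which makes epicatechin units for proanthocyanidins, was the most abundant enzyme after CHI when the genes with PA domain text were counted. Without them the mean CHI sum was 17.9 FPKM in ear-shaded and 12.2 FPKM in unshaded grains, against 21.0 and 37.1 FPKM for ANR. The 10 ANR genes summed to 17.9, 19.5 and 25.7 FPKM in ear-shaded libraries and 29.0, 21.6 and 60.8 FPKM in unshaded libraries. The groups overlapped, and unshaded replicate 3 stood far above the rest: the sum was 1.76-fold lower in ear-shaded grains with all libraries and 1.20-fold lower without that one. The gene with the highest mean, 2AG0241230, had 7.22, 8.62 and 11.4 FPKM in ear-shaded and 14.7, 11.2 and 30.4 FPKM in unshaded libraries. It was called lower (log2 fold change -0.87, SE 0.33, limma adjusted p = 0.0491), with ear-shaded replicate 3 just above unshaded replicate 2. The call ended under 9 of the 16 alternatives, among them the loss of any library but unshaded replicate 2 (adjusted p of 0.0527 to 0.146); without unshaded replicate 3 the log2 fold change was -0.48.

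The other abundant ANR genes did not pass. For 2DG0362230 the levels were 7.70, 7.50 and 11.1 FPKM in ear-shaded and 11.5, 7.49 and 22.7 FPKM in unshaded libraries (log2 fold change -0.50, SE 0.35, limma adjusted p = 0.24). It passed as lower without unshaded replicate 2 (-0.83, adjusted p = 0.0393). Levels of 2DG0362260 were 2.35, 2.55 and 2.77 FPKM in ear-shaded and 1.65, 1.97 and 6.11 FPKM in unshaded libraries. Here unshaded replicate 3 decided the sign, since the value of -0.11 on the log2 scale (SE 0.34, limma adjusted p = 0.799) became 0.34 (adjusted p = 0.0458) without it and 0.10 with library weights. Under the level for the test, 2AG0241200 had clearly separate groups, at 0.0854, 0.190 and 0.102 FPKM in ear-shaded and 1.01, 0.899 and 1.41 FPKM in unshaded libraries. It passed without the filter on low values (log2 fold change -0.90, limma adjusted p = 0.00184), and the authors' deposited table marks it as down with a log2 fold change of -3.37. The opposite pattern was seen in 1DG0126210, named after its values were seen, which had 0.479, 0.617 and 0.243 FPKM in ear-shaded libraries and was listed at 0 in all unshaded ones. It passed without the filter (log2 fold change 0.52, limma adjusted p = 0.00563) and is marked as up in the authors' deposited table.

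Among all 39 genes under the level for the test, none exceeded 1.41 FPKM in any library, and 2 rose and 3 fell when the filter was left out, a fit in which 28.4% of all 136488 genes rose and 12.8% fell. In the authors' deposited table, 1 of the 39 is marked up and 4 down, where 10.8% and 8.07% of all genes with a mean under 1 FPKM carry those marks. Over the 60 genes that table has 3 marked up and 10 marked down, where 13.4% of all genes are marked up and 12.9% down. Of the 21 tested genes, 6 were marked there and called here in the same direction, 0 in opposite directions, 3 were called here without a mark and 2 were marked without a call here. The authors' log2 fold changes differ from the log2 ratio of mean FPKM by a median of -0.382 over the tested genes (authors minus FPKM ratio).

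Unshaded replicate 3 was the highest of the unshaded libraries in 15 of the 21 tested genes (71.4%), against 49.6% of all tested genes. The exceptions included both FLS genes, in which it was the lowest of the 3. This library also had the lowest gliadin sum (11373 FPKM) and the highest antenna sum (20.8 FPKM) of the unshaded libraries, and the part of either in these values was not tested. Without it, 7 flavonoid genes rose and 3 fell, while increases over all tested genes came to 45.8% and decreases to 20.0%.

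The steps that feed the pathway had called genes in both directions. Of 36 tested entry genes (101 in all), 19 rose (52.8%) and 9 fell (25.0%), against 42.4% and 21.5% of all tested genes, with a median log2 fold change of 0.73 beside 0.26 for all tested genes. Phenylalanine ammonia-lyase (PAL), which starts the phenylpropanoid pathway, had 4 of 8 tested genes higher and 2 lower. The hydroxylase of cinnamate (C4H) had 4 of 7 higher and 2 lower, and the ligase that activates coumarate (4CL) had 8 of 10 higher and 1 lower. In the sums, PAL stood at 58.2 ± 6.50 FPKM in ear-shaded and 34.5 ± 3.69 FPKM in unshaded grains, C4H at 38.8 ± 5.47 and 20.0 ± 3.16 FPKM, and 4CL at 51.0 ± 6.10 and 23.7 ± 2.93 FPKM (SD, n = 3 each). These 3 sums did not overlap between the groups. The most abundant PAL gene, 6DG1165310, had 20.7, 22.3 and 13.1 FPKM in ear-shaded and 4.62, 4.61 and 7.11 FPKM in unshaded libraries (log2 fold change 1.60, SE 0.23, limma adjusted p = 0.000628). The leading C4H gene (3CG0506270) rose 2.12-fold and the leading 4CL gene (6CG1145650) 2.38-fold in mean FPKM.

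Acetyl-CoA carboxylase, the source of malonyl units, was lower in its sum over all forms. Its genes summed to 307 ± 19.0 FPKM in ear-shaded and 488 ± 84.6 FPKM in unshaded grains, without overlap. Of 11 tested genes 4 fell (36.4%) and 3 rose (27.3%), against 21.5% and 42.4% of all tested genes. The most abundant, 4CG1256570, had 64.2, 63.6 and 72.6 FPKM in ear-shaded and 137, 104 and 137 FPKM in unshaded libraries (log2 fold change -0.89, SE 0.18, limma adjusted p = 0.00284). All 4 genes that fell are described as the plastid form, which serves fatty acid synthesis, as is 4CG1256580, which rose 2.59-fold (log2 fold change 1.33, limma adjusted p = 0.0032) and is named after its values were seen. The list is therefore not specific to flavonoids. None of the tested genes without the plastid description fell. Named after their values were seen, 1DG0159050 and UnG1513700 were 2.43-fold and 2.28-fold higher (limma adjusted p = 0.0424 and 0.00172). The others, 1AG0008580, 1AG0040260 and MSTRG.8582, did not pass (1.04-fold to 1.15-fold).

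Enzymes that share substrates or act on the products made up a list of 74 genes, of which 36 were tested. Of these, 21 rose (58.3%, against 42.4% of all tested genes) and 8 fell (22.2%, close to the 21.5% of all tested genes). Their median log2 fold change was 0.74. The increases lay in the phenylpropanoid enzymes, but these held all of the tested genes except 2 of a glucosyltransferase. HCT, which joins coumarate to shikimate on the way to lignin, had 12 of 18 tested genes higher and 3 lower, and its leading gene, 2DG0358220, had 33.0, 33.1 and 14.2 FPKM in ear-shaded and 0.502, 2.28 and 1.15 FPKM in unshaded libraries (log2 fold change 3.56, SE 0.38, limma adjusted p = 0.000155). The coumaroyl 3'-hydroxylase C3'H had 1 of 3 higher, and its leading gene, 1AG0044820, did not pass as deposited (log2 fold change 0.24, limma adjusted p = 0.438), passed without unshaded replicate 3 (0.57, adjusted p = 0.00706) and turned to -0.04 with median-of-ratios scaling. Caffeoyl-CoA O-methyltransferase had 8 of 13 higher and 3 lower, with 7AG1216970 rising 2.23-fold. Of its rows, 9 also name tricin synthase, an enzyme named for tricin, a flavone of grasses. These 9 summed to 157, 152 and 106 FPKM in ear-shaded and 60.8, 70.5 and 52.0 FPKM in unshaded libraries. Of the 6 tested, 5 rose and 0 fell, whereas the 7 rows without that name had 3 higher and 3 lower. This split by text was not among the planned lists. The 6 tested genes lie in runs of adjacent IDs with 7A or 7D, and close copies can share reads.

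The glucosyltransferase that caps flavonols and anthocyanidins at the 3 position was lower, as FLS was. All 3 of its rows name both substrates, so flavonol and anthocyanidin activity are not told apart. Its most abundant gene, 7DG1342870, had 0.438, 0.401 and 0.545 FPKM in ear-shaded and 2.06, 2.36 and 1.78 FPKM in unshaded libraries. It was 4.48-fold lower (log2 fold change -1.07, SE 0.12, limma adjusted p = 0.000219). A second copy, 7AG1207150, named after its values were seen, had 0.249, 0.219 and 0.388 FPKM in ear-shaded and 2.56, 2.15 and 1.91 FPKM in unshaded libraries, 7.73-fold lower (log2 fold change -1.32, SE 0.13, limma adjusted p = 0.000111). The first kept its call under all 16 alternatives and the second under the 15 in which it reached the level for the test. The third, 5CG0871060, was under the level for the test and its groups overlapped.

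Leucoanthocyanidin reductase (LAR), which makes catechin units, and the 3',5'-hydroxylase of blue pigments (F3'5'H) stayed under the level for the test. The leading LAR gene, 5AG0800560, had 0.435, 0.386 and 0.541 FPKM in ear-shaded and 0.439, 0.620 and 0.684 FPKM in unshaded libraries, with overlapping groups. The leading F3'5'H gene, 4CG1314830, had 0.286, 0.253 and 0.207 FPKM in ear-shaded and 0.0411, 0.0472 and 0.0241 FPKM in unshaded libraries, which do not overlap but are all low.

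**Figure D5:**
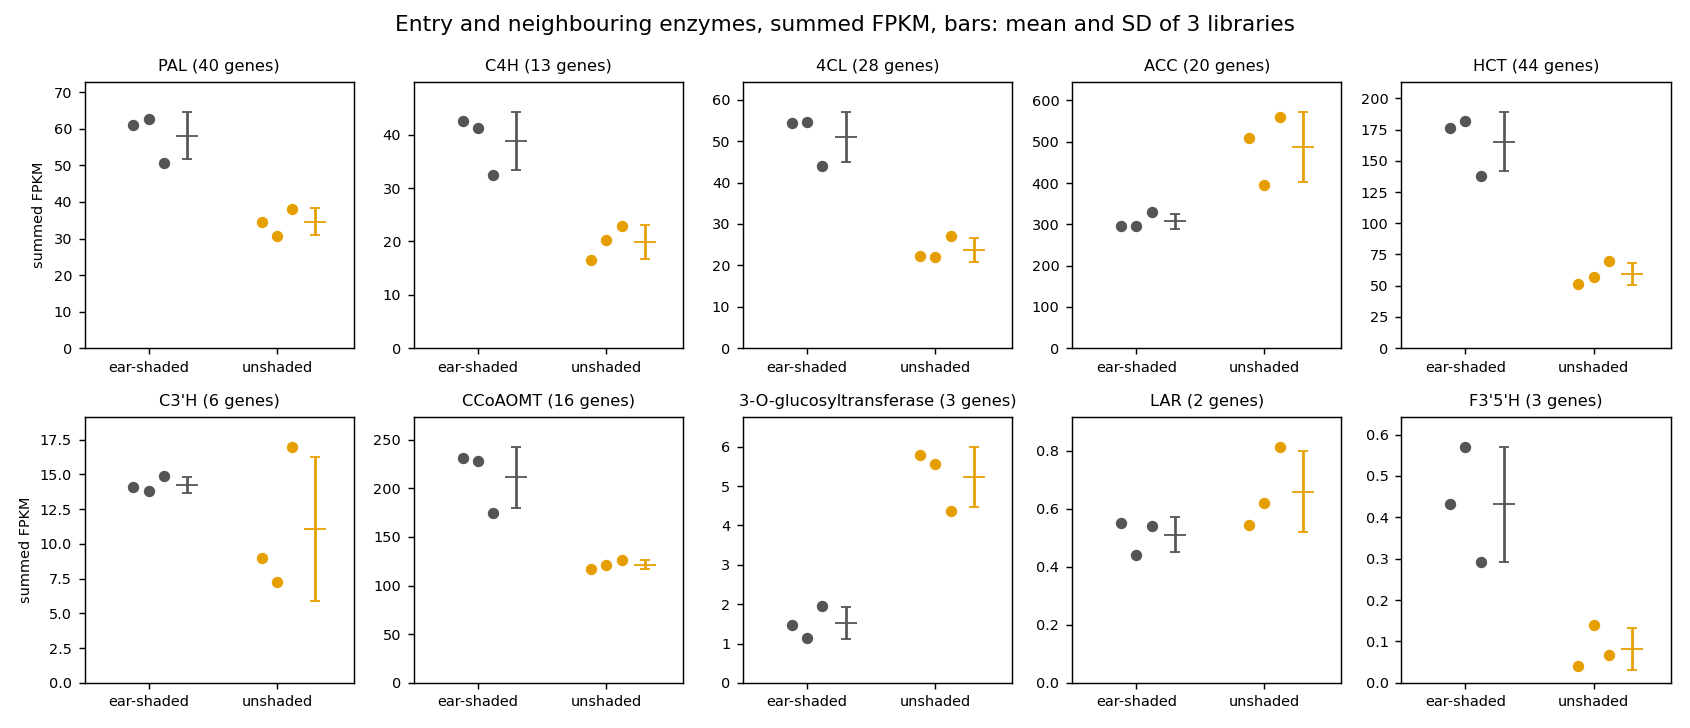
Summed FPKM of entry enzymes and of neighbouring enzymes per library, each panel on its own linear axis from 0, with dots for libraries and bars for mean and SD of 3. PAL, C4H, 4CL, HCT, caffeoyl-CoA O-methyltransferase (CCoAOMT) and F3'5'H are higher in every ear-shaded library, and acetyl-CoA carboxylase (ACC) and the 3-O-glucosyltransferase are lower.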

How the data were processed

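RNA from peeled grains was measured in 6 libraries, 3 from ear-shaded and 3 from unshaded ears, grouped by the treatment label. The authors deposited FPKM per gene and library, with their own log2 fold change, p-value and adjusted p-value; the submitters' processing notes list HISAT2 and StringTie, with no version. The labels' protocols describe an Illumina kit with random primers and also name a PacBio sequencer. What genome build, annotation, strand setting and test the authors used is not given in the sources used here. The deposited gene length in bases, another column, was used as a description.

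FPKM are not counts. At the best step, 15.3% to 27.0% of low values per library lay within 0.05 of a whole number of reads, so depth is unknown and no interval from counts is given. Those genes whose mean reached 1 FPKM (58283 of 136488) were tested on log2(FPKM + 1) with limma 3.58.1 in R 4.3.3, with a mean-variance trend, a two-sided test, Benjamini-Hochberg adjustment over these genes and a threshold of 0.05. Folds are ratios of mean FPKM; log2 fold changes on this scale understate changes of low genes. The model was also run on simulated data, but the outcome is not reported here and no conclusion is drawn from it. Figures were drawn with matplotlib 3.10.9.

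Members and lists were chosen with earlier results of these data known. Named genes are, per enzyme, up to 4 of highest mean and up to 2 called in each direction with a mean of at least 2 FPKM, and 1 per entry or neighbouring enzyme. The 16 alternatives varied pseudocount, filter, scaling, variance model, weights, the replicate block and single libraries. No genome or sequence was used.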

Additional observations from a re-analysis of the deposited data

How the results depend on the processing

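Of the 21 flavonoid genes tested, 5 kept call and direction under all 16 alternatives, among them 4 of the 9 called genes: both FLS genes and the CHI genes 7CG0710680 and 4DG0758920. Median-of-ratios scaling and quantile normalization each gave 2 flavonoid genes higher and 8 lower (CHI 2 and 5, F3H 0 higher), where 29.7% and 31.2% of all tested genes were higher and 29.8% and 28.6% lower. The replicate block gave 7 lower (CHI 3, F3H 1) and 0 F3H genes higher. Same-numbered libraries did not deviate together (correlations of -0.0523, -0.0461 and -0.147), and no library correlated best with its own number. Deviations from means of 3 libraries cannot decide whether the numbers mark pairs. Averaging ear-shaded replicates 1 and 2 left 2 lower (CHI 0, ANR 0) and 0 F3H genes higher. Library weights gave 3 CHI genes lower, a pseudocount of 0.1 gave 0 ANR genes lower, and scaling to the same sum gave 0 ANR and 1 F3H genes lower. Without the filter 38730 genes of the table and 30 entry genes were higher, and F3H had 0, ANR 1 and ANS 1 higher and F3'H 2 lower; at a mean of 0.5 FPKM CHS had 1 higher and ANR 2 lower.

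Leaving out 1 library gave 2 to 7 flavonoid genes higher and 2 to 6 lower, CHI 2 to 5 and 0 to 2, F3H 0 to 1 and 0 to 1, ANR 0 to 1 and 0 to 2, and DFR 0 to 1 lower; FLS stayed at 2 lower. Flavonoid increases were down to 2 without ear-shaded replicate 2, and decreases to 2 without ear-shaded replicate 1 or 2. The cause of these shifts was not tested.

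Signs turned for CHI 4AG0588640 (0.01 scaled to the same sum), 4DG0733080 (-0.25 and -0.06) and 5DG0975800 (-0.11 and -0.01, both with median-of-ratios and quantile scaling), for DFR 3AG0439610 (0.03 with library weights), for ANR 2DG0362260 (0.10 with library weights, and -0.37 to 0.34 when single libraries were left out) and for C3'H 1AG0044820 (-0.04 with median-of-ratios scaling). Leaving out rows with another enzyme number could not change the counts (5 higher, 4 lower), because no tested flavonoid gene carried one. Most members lie near 1 FPKM or below, where depth is unknown.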
